A study of Mus musculus with 6 samples.

Results

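Ncr1 encodes NKp46, an activating receptor of natural killer (NK) cells, innate lymphocytes that attack virus-infected cells and tumour cells. Its transcript was followed through RNA sequencing of NK cells purified from mouse spleen. Ncr1 was taken as the row with that symbol, 1 gene of 11717 listed, and was selected on its measured CPM, which had already been seen to differ between the genotypes in these libraries. Its levels are therefore described and not tested. The libraries formed 2 groups of 3. The first group came from C57BL/6 mice labelled IL-15Tg-Xbp1s cKO (cKO below), a conditional knockout directed at Xbp1s on an IL-15 transgenic background. The second came from C57BL/6 mice labelled IL-15Tg WT (WT below). Both groups thus carried the IL-15 transgene, and IL-15 is the cytokine that keeps NK cells alive and makes them multiply. The sources used here give neither the age of the mice nor the promoter of the transgene nor the Cre line. Some Cre lines used in NK cells place the recombinase at the Ncr1 locus. Whether 1 group here carried such an allele is not stated, and its part could not be told apart from the genotype.

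NKp46 is an immunoglobulin-like receptor on the surface of NK cells and of some other innate lymphocytes. It has no signalling motif of its own and passes its signal through the adaptors CD3 zeta and Fc receptor gamma, whose phosphorylated motifs recruit kinases of the SYK family. In mice it is widely used to define NK cells. Xbp1s is the spliced form of a transcription factor of the unfolded protein response, the programme by which a cell adapts its endoplasmic reticulum to protein load.

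Ncr1 (ENSMUSG00000062524.4, protein-coding) lies on the plus strand of chromosome 7, from 4337724 to 4345164 in GENCODE M21 on build mm10 (GRCm38). GENCODE gives it 2 protein-coding transcripts, of 7 exons and 6 exons, that share their last exons. Their exons together cover 1540 bases, and 0 other annotated genes overlap the gene on either strand. The deposited values are sums over the gene, with no value per transcript.

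The stretch just before the start of the gene is shown because RUNX factors, which act in NK cell development, have been reported to act on the Ncr1 promoter. It is the 250 bases before the first of 2 RefSeq transcription starts listed for Ncr1, chr7:4337465-4337714, plus strand, GRCm38.p6. The RUNX letters TGTGGT or their reverse complement ACCACA are in capitals. Matches and distances below are for this start only.
Ncr1 promoter: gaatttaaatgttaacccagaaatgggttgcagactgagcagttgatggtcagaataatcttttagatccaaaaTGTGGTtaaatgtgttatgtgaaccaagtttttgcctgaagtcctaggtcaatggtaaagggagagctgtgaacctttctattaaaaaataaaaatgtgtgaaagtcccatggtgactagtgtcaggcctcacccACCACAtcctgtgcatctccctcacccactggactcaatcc
The RUNX letters occurred at 2 places, from 176 to 171 and from 41 to 36 bases before the start. Of 32851 promoter windows of this length in the RefSeq table, 14.0% held them on either strand. The letters GTGTGA, from the motif of T-box factors such as T-bet and Eomes, occurred at 1 place, from 80 to 75 bases before the start, and 12.3% of all windows held them. The letters ACGTG, the core bound by XBP1 and related factors, did not occur in this window on either strand, while 16.6% of all windows held them. Nor did CCACG, a part of the endoplasmic reticulum stress element that can overlap the reverse complement of ACGTG and that 28.3% of windows held. The letters GGAAG of ETS factors (64.1% of windows) and TTCNNNGAA of STAT factors (7.02%) did not occur either. These are matches of letters, and no binding was measured.

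In cKO libraries 1, 2 and 3 Ncr1 was at 975, 963 and 881 CPM (counts per 1000000 of the library's listed reads), and in WT libraries 1, 2 and 3 at 1264, 1408 and 1242 CPM. The groups did not overlap, with the cKO libraries lower. The gap of 267 CPM between the highest cKO and the lowest WT library was wider than the range within cKO (94.5 CPM) or within WT (166 CPM). The group means were 939.6 ± 51.4 CPM in cKO and 1305 ± 90.1 CPM in WT (SD, n = 3 each), a ratio of 0.72 and a log2 fold change of -0.47. On the log2(CPM + 0.5) scale this value ranged from -0.51 to -0.42 when each library was left out in turn. Over the 9 ways to set a cKO library against a WT library, the cKO value was between 62.5% (cKO library 3 against WT library 2) and 78.5% (cKO library 1 against WT library 3) of the WT value.

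**Figure D1:**
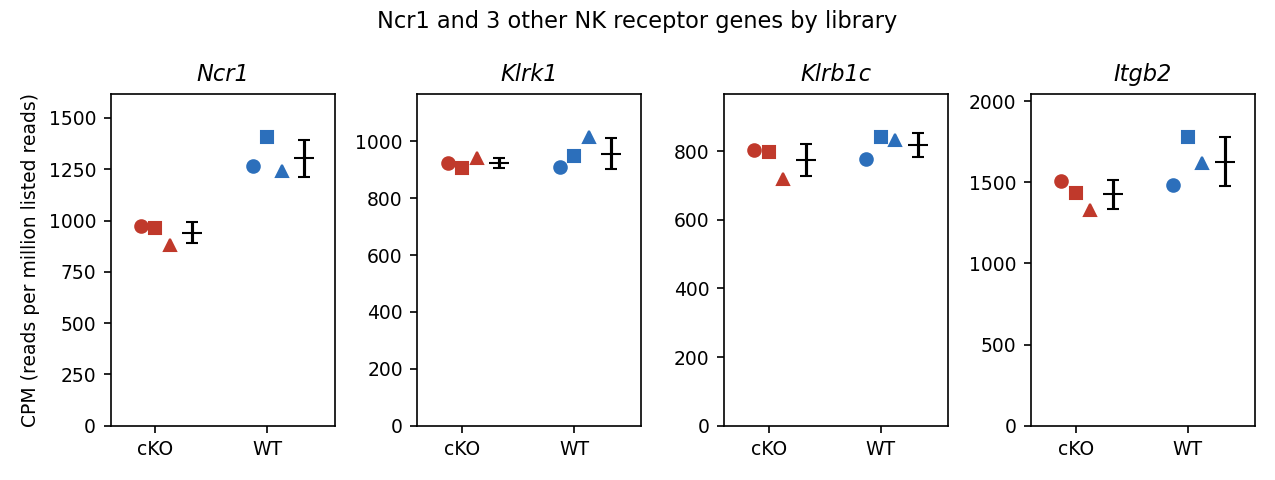
CPM of Ncr1 and of the receptor genes Klrk1, Klrb1c and Itgb2 in each library (circle, square and triangle for libraries 1, 2 and 3; cKO in red, WT in blue), with the group mean and SD in black. The 3 cKO libraries sit between 881 and 975 CPM for Ncr1, all below the WT libraries, while the groups overlap for the other genes.

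These values rest on many reads. Ncr1 had 28640, 27414 and 23698 reads in cKO libraries 1, 2 and 3, and 35018, 40254 and 32671 reads in WT libraries 1, 2 and 3. Counting error alone gives a coefficient of variation of 0.498% to 0.65% per library, against 5.47% between cKO libraries and 6.9% between WT libraries. The spread between libraries was therefore mostly not counting error. The exact 95% Poisson interval of cKO library 1, the highest of its group, was 964 to 987 CPM, and that of WT library 3, the lowest of its group, was 1229 to 1256 CPM (counting error only).

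Ncr1 was among the most abundant transcripts in every library. By CPM per kb of exon, which allows levels of different genes to be compared, it was at 610.1 ± 33.4 in cKO and 847.4 ± 58.5 in WT (SD, n = 3 each). On this scale its rank among the 11717 genes was 24, 27 and 24 in cKO libraries 1, 2 and 3 and 16, 16 and 17 in WT libraries 1, 2 and 3. Every cKO library thus gave Ncr1 a lower place than the WT libraries did, yet the gene stood above 99.8% of the listed genes in cKO and 99.9% in WT. By reads alone, without length, it was at ranks 51 to 66 in cKO and 30 to 37 in WT.

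The genes next to Ncr1 in level per kb show where that is. Directly above it over all 6 libraries stood Rps15, a ribosomal protein gene, at 746 ± 75.2 CPM per kb in cKO and 743 ± 37.3 in WT, then Tyrobp, the adaptor DAP12 of other NK receptors, at 797 ± 48.9 in cKO and 882.5 ± 79.0 in WT, and Gm22009 at 835 ± 93.4 in cKO and 860.5 ± 25.8 in WT (SD, n = 3 each). Directly below it stood Scarna2, a small nuclear RNA of Cajal bodies, at 734 ± 9.30 CPM per kb in cKO and 718 ± 26.5 in WT, and the MHC class I genes H2-K1 and H2-D1. H2-K1 was at 674 ± 12.5 CPM per kb in cKO and 715.5 ± 54.6 in WT, and H2-D1 at 678 ± 15.0 in cKO and 705 ± 40.7 in WT. In WT the level of Ncr1 lay within the spread of Tyrobp and Gm22009 and above those of Rps15, Scarna2 and the MHC genes by more than 1 SD. In cKO it lay below all 6 of these neighbours.

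Per kb, Ncr1 was the highest of 20 activating and costimulatory receptor genes in both genotypes. Itgb2, the beta chain of the adhesion receptor LFA-1, followed at 467 ± 29.4 CPM per kb in cKO and 533 ± 49.25 in WT, and Klra8, the Ly49H receptor for a cytomegalovirus protein, at 415 ± 18.2 in cKO and 450.1 ± 16.9 in WT (SD, n = 3 each). Klra4 (Ly49D), Itgal (the alpha chain of LFA-1) and Klrb1c (NK1.1) came next, at 295, 266 and 262 CPM per kb in cKO and 316, 281 and 276 in WT. Itgal and Klrb1c did not differ beyond their spread. Klrk1, which encodes NKG2D, was at 128.5 ± 2.445 CPM per kb in cKO and 133 ± 7.62 in WT, and Fcgr3, which encodes CD16, at 37.5 ± 3.70 in cKO and 38.8 ± 3.065 in WT. At the low end were Crtam (4.11 CPM per kb in cKO and 4.79 in WT) and Slamf6 (1.98 in cKO and 1.59 in WT). Genes of the Ly49 family are close copies of each other, and how reads were split among them is not stated.

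**Figure D2:**
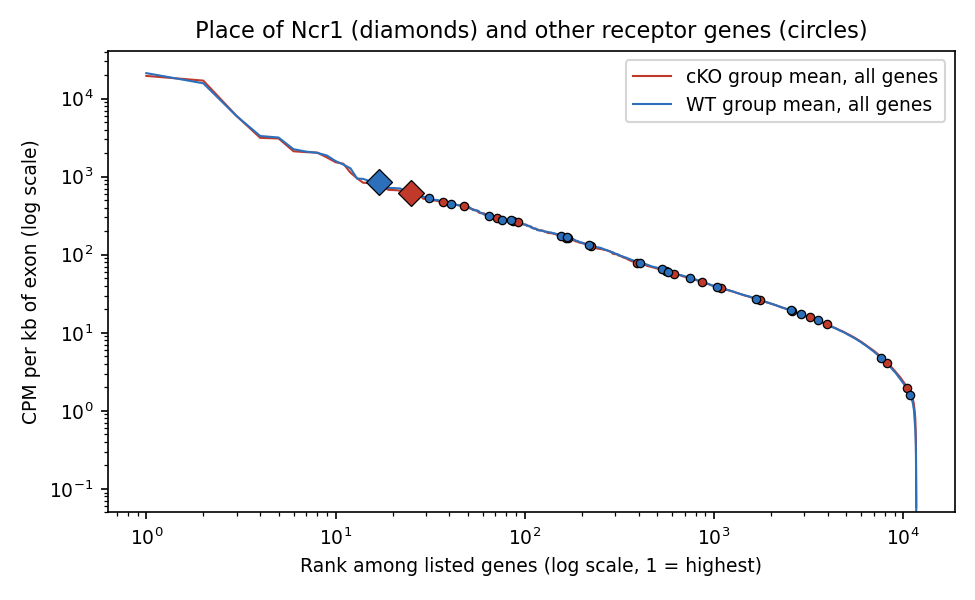
Level of every listed gene, as group mean CPM per kb of exon (log scale), against its rank (log scale), in cKO (red) and WT (blue). Diamonds mark Ncr1 and circles the other 19 receptor genes; Ncr1 stands at rank 25 in the cKO means and 17 in the WT means.

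None of the 11343 genes tested passed the limma test between cKO and WT at an adjusted p under 0.05 (0%), and 133 (1.17%) had an unadjusted p under 0.05, 0.846% higher and 0.326% lower in cKO. The edgeR quasi-likelihood test called 0 genes (0%) and listed 145 (1.28%) without adjustment, and DESeq2 called 6 (0.0529%) and listed 155 (1.37%). The fold change was below 0 in 44.5% of the genes. The groups did not overlap in 4.32%, with the cKO libraries lower in 1.77% and higher in 2.55%. Ncr1, with its cKO libraries lower, was chosen for that difference. Of the 226 genes with a mean of at least 500 CPM, Ncr1 had the lowest fold change. The highest was 0.14, for Rnf213, which was at 525 ± 26.75 CPM in cKO and 478 ± 10.45 CPM in WT (SD, n = 3 each). The median absolute log2 fold change of these abundant genes was 0.034.

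**Figure D3:**
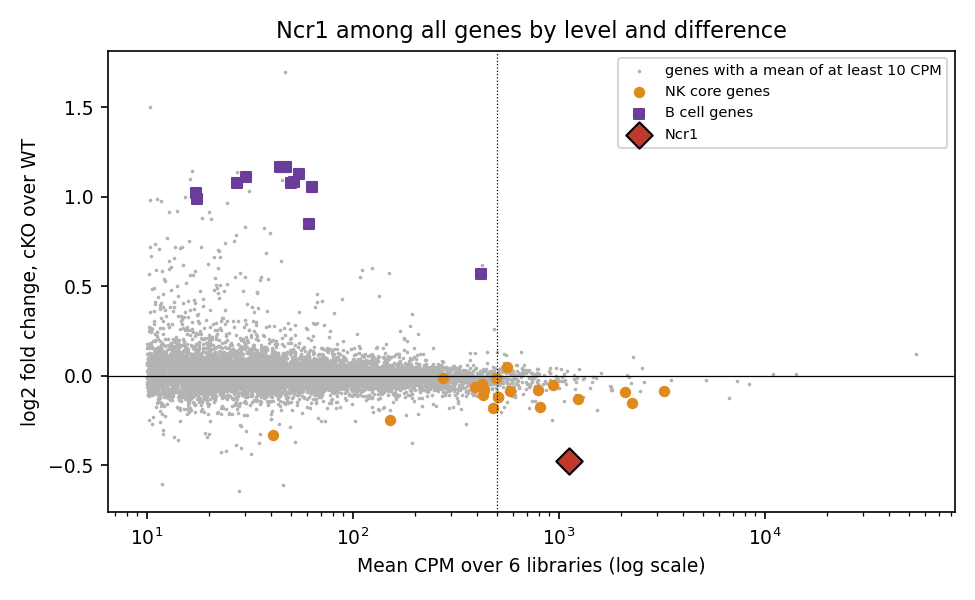
Log2 fold change of cKO over WT against the mean CPM over 6 libraries (log scale) for genes with a mean of at least 10 CPM (grey), with NK core genes (orange), B cell genes (purple) and Ncr1 (red diamond); the dotted line marks 500 CPM. Ncr1, at -0.47, lies below every other gene to the right of the line.

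The cells carried an NK profile in both groups. A list of 20 NK core genes (receptors, granule proteins and transcription factors, without Ncr1) summed to 15328 to 16634 CPM in cKO and 15804 to 18022 CPM in WT. In these bulk libraries fewer NK cells and less of a transcript per NK cell cannot be told apart, so Ncr1 was also set against these genes. Of the 20, 0 passed the limma test over all genes and 1 (Klri2) had an unadjusted p under 0.05. In 19 the fold change was below 0, with a median of -0.087, against 0.0087 over all genes tested. The cKO libraries were all lower in 3 of the 20 (Klri2, Nkg7 and Klrd1) and all higher in 1 (Eomes). Over all genes tested these shares were 1.77% and 2.55%. Relative to the mean of the NK core genes on the log2 scale, Ncr1 stood 0.82, 0.82 and 0.71 higher in cKO libraries 1, 2 and 3 and 1.23, 1.23 and 0.99 higher in WT libraries 1, 2 and 3. The groups did not overlap on this scale either, and the difference was -0.37, smaller than the -0.47 in CPM. As a share of the summed CPM of the NK core genes, Ncr1 came to 5.75% to 5.89% in cKO and 6.96% to 8.0% in WT.

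Transcripts of other cells were present in both groups. All 12 B cell markers were higher in cKO by fold change (median 1.08 on the log2 scale, 0 of 12 with an unadjusted p under 0.05), and they summed to 1428, 569 and 1317 CPM in cKO libraries 1, 2 and 3 and to 761, 941 and 285 CPM in WT libraries 1, 2 and 3. Markers of T cells summed to 249 to 322 CPM in cKO and 264 to 350.3 CPM in WT. Trbc1 was the highest of them, at 132 ± 18.1 CPM in cKO and 137 ± 16.8 CPM in WT (SD, n = 3 each). Cd3e was at only 9.49 ± 6.55 CPM in cKO and 8.92 ± 7.56 CPM in WT. Markers of macrophages and monocytes (6 of 12 listed) summed to 236 to 446 CPM in cKO and 195 to 263 CPM in WT. All 6 macrophage and monocyte markers had a fold change above 0 (median 0.60 on the log2 scale), 2 of them with an unadjusted p under 0.05, and 1 of the 6 was higher in every cKO library than in the WT libraries. Of all genes tested 2.55% were higher in every cKO library. Markers of neutrophils (8 of 9 listed) came to 113 to 153 CPM in cKO and 100.4 to 126 CPM in WT, with all 7 tested members above 0 (median 0.23) and 2 at an unadjusted p under 0.05. Those of erythroid cells (7 of 8 listed) came to 171 to 325 CPM in cKO and 166 to 399.5 CPM in WT, and those of ILC1 (6 of 8 listed) to 67.5 to 94.8 CPM in cKO and 73.0 to 81.7 CPM in WT. Dendritic cell markers (9 of 10 listed) summed to 961 to 1173 CPM in cKO and 992 to 1162 CPM in WT, most of it from Itgax, which mouse NK cells also express. Of these 9 markers 8 had a fold change above 0 (median 0.33) and 1 had an unadjusted p under 0.05. The marker below 0 was Itgax (-0.14), so the sum mostly follows the gene that went the other way. Cd209a and Siglech, 2 of the 9, were higher in every cKO library than in the WT libraries, and so was Camp, 1 of the 7 tested neutrophil markers. None of the markers of other cells passed limma over all genes. No listed marker was at 0 in any library. Their part in the level of Ncr1 was not tested.

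Xbp1, the targeted gene, was examined as a check of the labels. It was at 35.1, 33.4 and 39.65 CPM in cKO libraries 1, 2 and 3 and at 42.9, 61.4 and 63.5 CPM in WT libraries 1, 2 and 3 over the whole gene, without separating its spliced form. The groups did not overlap, with the cKO libraries lower, as in 1.77% of all genes tested. WT library 1 lay close to cKO library 3, and the gene was not called (limma, adjusted p = 1.0). These values alone do not settle the check.

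Other receptors that trigger or assist NK cells were compared between cKO and WT beside Ncr1. Of 19 measured, 0 passed the limma test over all genes in either direction, and 0 had an unadjusted p under 0.05. In 18 the fold change was below 0 and in 1 above, with a median of -0.079 and a range from -0.21 (Crtam) to 0.31 (Slamf6). Leaving out WT library 1 gave a median of -0.13, and leaving out WT library 3 gave -0.041. Without WT library 1, 3 of the receptors had an unadjusted p under 0.05 in limma. With all libraries DESeq2 listed 3 without adjustment, against 1.37% of all genes, and edgeR listed 0. None was called in any of these. Klra4 was the only one of the 19 whose groups were apart, at 375.5, 373 and 354 CPM in cKO libraries 1, 2 and 3, against 377, 414 and 389.6 CPM in the WT libraries. Over all genes tested the groups were apart in 4.32%.

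NKG2D, another activating receptor, gave a narrow range: Klrk1 was at 925, 905 and 939.9 CPM in cKO libraries 1, 2 and 3 and at 908, 947 and 1016 CPM in WT libraries 1, 2 and 3. The groups overlapped, and the log2 fold change was -0.051. Klrb1c, which encodes NK1.1, was at 805, 798 and 720 CPM in cKO libraries 1, 2 and 3 and at 777, 842 and 834 CPM in WT libraries 1, 2 and 3, a log2 fold change of -0.08. Itgb2 was at 1511, 1434 and 1332 CPM in cKO libraries 1, 2 and 3, against 1481, 1781 and 1619 CPM in the WT libraries, a log2 fold change of -0.19. Itgb2 and Klrb1c, like Klrk1, overlapped between the groups. Klra9, which was in the list, encodes an inhibitory receptor of the Ly49 family in this strain, and its log2 fold change was -0.12.

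The adaptors that NKp46 signals through were next. Cd247, the gene of CD3 zeta, was at 158, 159 and 141 CPM in cKO libraries 1, 2 and 3 and at 143, 174 and 159 CPM in WT libraries 1, 2 and 3. Fcer1g, the gene of Fc receptor gamma, was at 360.4, 345 and 310.5 CPM in cKO libraries 1, 2 and 3 and at 341, 369 and 353 CPM in WT libraries 1, 2 and 3. Both overlapped between the groups, with log2 fold changes of -0.053 and -0.066.

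Kinases and scaffolds act behind the adaptors. Zap70 was at 143 ± 2.09 CPM in cKO and 152 ± 10.3 CPM in WT, and Syk, the related kinase, at 556 ± 68.3 CPM in cKO and 528 ± 50.2 CPM in WT (SD, n = 3 each). The kinase gene Lck was at 494 ± 14.0 CPM in cKO and 511 ± 52.5 CPM in WT. The scaffold gene Lcp2 (SLP-76) was at 217 ± 11.9 CPM in cKO and 223 ± 17.8 CPM in WT. Zap70, Syk, Lck and Lcp2 overlapped between the groups. Ptpn6, the gene of the inhibitory phosphatase SHP-1, was at 227, 192.4 and 203 CPM in cKO libraries 1, 2 and 3 and at 184, 192.0 and 142 CPM in WT libraries 1, 2 and 3, with the cKO libraries all higher and cKO library 2 almost level with WT library 2. Its log2 fold change was 0.28. Ptpn6 was the only 1 of the 21 signalling genes with its groups apart, against 4.32% of all genes tested. Over the 21 signalling genes 0 passed the limma test in either direction and 0 had an unadjusted p under 0.05. In 13 the fold change was below 0 and in 8 above, with a median of -0.016. This median lay above 0 when WT library 2 (0.015), WT library 3 (0.013) or cKO library 2 (0.016) was left out, and leaving out WT library 1 gave -0.063.

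**Figure D4:**
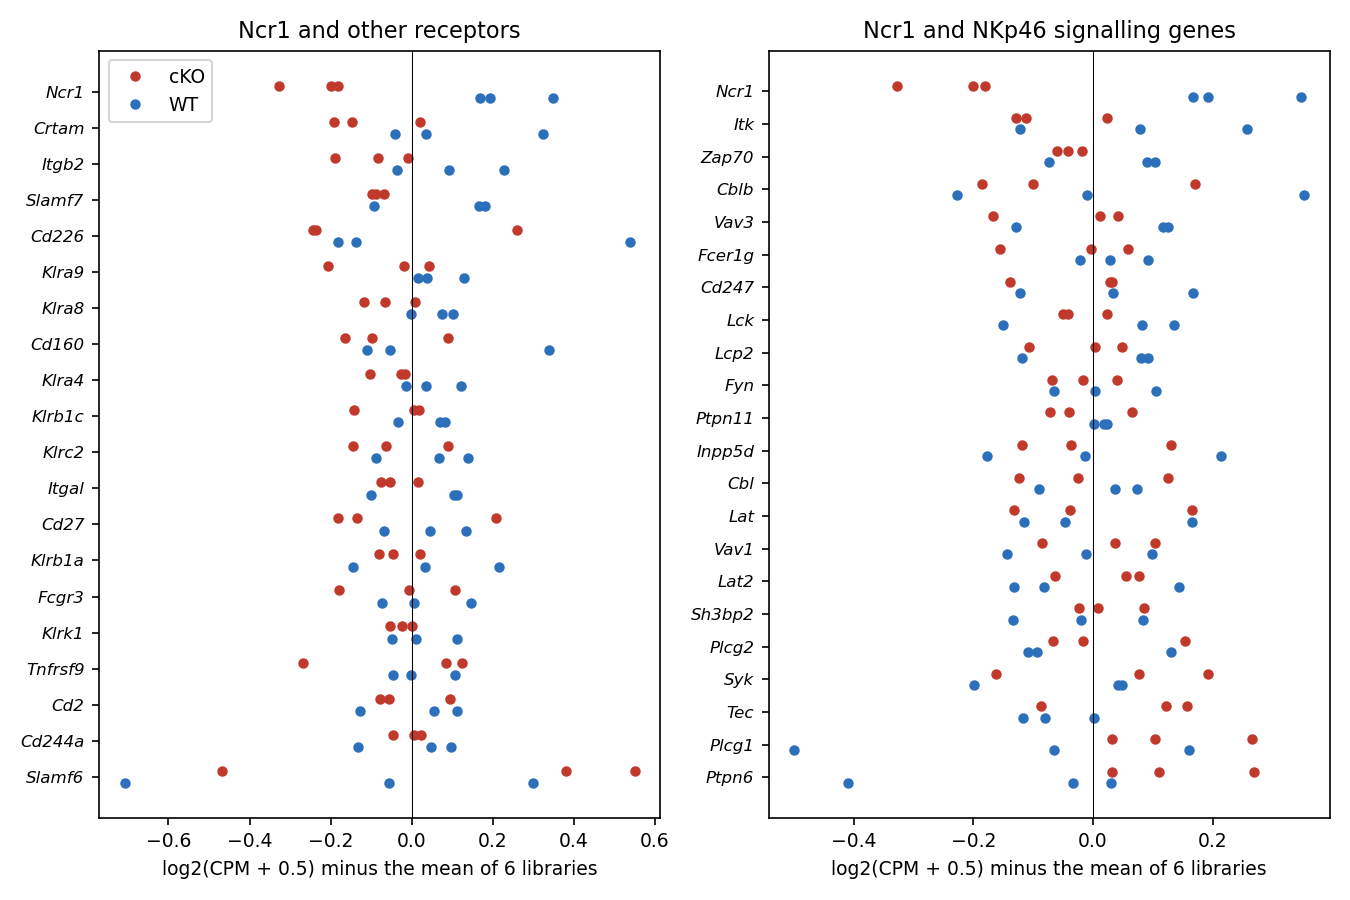
Log2(CPM + 0.5) of each library minus the mean of the 6 libraries, for Ncr1 and 19 other receptor genes (left) and for Ncr1 and 21 genes of NKp46 signalling (right), cKO in red and WT in blue, ordered by fold change. The red and blue points of Ncr1 are apart, and those of the other genes overlap except in Klra4 and Ptpn6.

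Transcription factors that act on Ncr1 or on NK identity showed small differences. RUNX3, with its partner CBF beta, acts in NK cell development. Runx3 was at 328, 293 and 372 CPM in cKO libraries 1, 2 and 3 and at 296, 333 and 416 CPM in WT libraries 1, 2 and 3. Cbfb, the gene of the partner, was at 137 ± 1.98 CPM in cKO and 137 ± 7.41 CPM in WT (SD, n = 3 each). Both overlapped between the groups. The T-box genes gave 411 ± 45.5 CPM in cKO and 445 ± 75.4 CPM in WT for Tbx21, and 568 ± 3.225 CPM in cKO and 549 ± 15.1 CPM in WT for Eomes (SD, n = 3 each).

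Of the 24 factors, 0 passed the limma test over all genes and 0 had an unadjusted p under 0.05. In 15 the fold change was below 0 and in 9 above, within -0.12 (Nfil3, a factor that NK cell development requires) and 0.14 (Ikzf2), and their median was -0.027. Leaving out WT library 3 gave a median of 0.018, and leaving out WT library 1 gave -0.072. The groups did not overlap in 2 of the 24, Eomes and Ikzf2, both with the cKO libraries higher, against 2.55% of all genes tested. Helios, the product of Ikzf2, has been reported to be higher in NK cells of mice with a loss-of-function allele of Ncr1. Here Ikzf2 was at 21.7, 20.3 and 22.0 CPM in cKO libraries 1, 2 and 3 and at 19.6, 18.5 and 19.7 CPM in WT libraries 1, 2 and 3, a log2 fold change of 0.14 that did not pass (limma, adjusted p = 1.0).

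Genes tied to what NKp46 does were examined last among the lists. Properdin, the product of Cfp, has been reported as a ligand of NKp46, and Cfp was at 18.2, 8.465 and 14.5 CPM in cKO libraries 1, 2 and 3 and at 8.99, 10.7 and 9.62 CPM in WT libraries 1, 2 and 3. Tnfsf10, the gene of the death ligand TRAIL, was at 20.7 ± 2.405 CPM in cKO and 20.9 ± 3.01 CPM in WT, and Ifng at 38.2 ± 8.54 CPM in cKO and 38.5 ± 8.98 CPM in WT (SD, n = 3 each). The granule gene Prf1 (perforin) was at 1178 ± 92.3 CPM in cKO and 1289 ± 111 CPM in WT, and Gzmb (granzyme B) at 489 ± 57.3 CPM in cKO and 531 ± 65.9 CPM in WT. Cfp, Tnfsf10, Ifng, Prf1 and Gzmb overlapped between the groups. Of 7 genes measured, 0 passed the limma test and 0 had an unadjusted p under 0.05, with a median log2 fold change of -0.0071.

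The neighbourhood of Ncr1 on chromosome 7 holds other genes of immunoglobulin-like receptors. Within 1 Mb on either side 40 genes were listed and 39 were tested, with Gm35037 below the filter on low values. Of the 39, 0 passed the limma test over all genes and 0 had an unadjusted p under 0.05. In 26 the fold change was below 0 and in 13 above, and the median was -0.037, or -0.0013 when WT library 1 was left out. The groups were apart in 2 of the 39, Isoc2b and Zfp524, with the cKO libraries lower, against 1.77% of all genes tested. Isoc2b was at 3.82 ± 0.424 CPM in cKO and 4.40 ± 0.177 CPM in WT, and Zfp524 at 5.30 ± 0.368 CPM in cKO and 6.30 ± 0.537 CPM in WT (SD, n = 3 each).

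The nearest listed neighbour after the gene was Gp6, the platelet collagen receptor, which begins 18.8 kb beyond its end and was at 13.55, 17.8 and 20.5 CPM in cKO libraries 1, 2 and 3 and at 15.6, 13.85 and 30.65 CPM in WT libraries 1, 2 and 3. The nearest before it was Cdc42ep5, 173 kb away, which was at 1.19, 2.00 and 1.67 CPM in cKO libraries 1, 2 and 3 and 1.73, 1.05 and 3.00 CPM in WT libraries 1, 2 and 3. Gp6 and Cdc42ep5 overlapped between the groups. The inhibitory collagen receptor gene Lair1 was at 34.7 ± 4.72 CPM in cKO and 36.0 ± 5.57 CPM in WT, and Pirb, a paired immunoglobulin-like receptor, at 21.8 ± 7.26 CPM in cKO and 15.9 ± 1.67 CPM in WT (SD, n = 3 each). The fold change farthest from 0 was that of Eps8l1 (1.70 on the log2 scale), which was at 69.2, 34.5 and 77.8 CPM in cKO libraries 1, 2 and 3, against 55.5, 43.2 and 1.79 CPM in WT libraries 1, 2 and 3. Its low value was in WT library 3, the library with the lowest B cell sum. Between WT libraries 1 and 2, Eps8l1 was higher in library 1 and the B cell sum in library 2. A link between them was not tested.

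**Figure D5:**
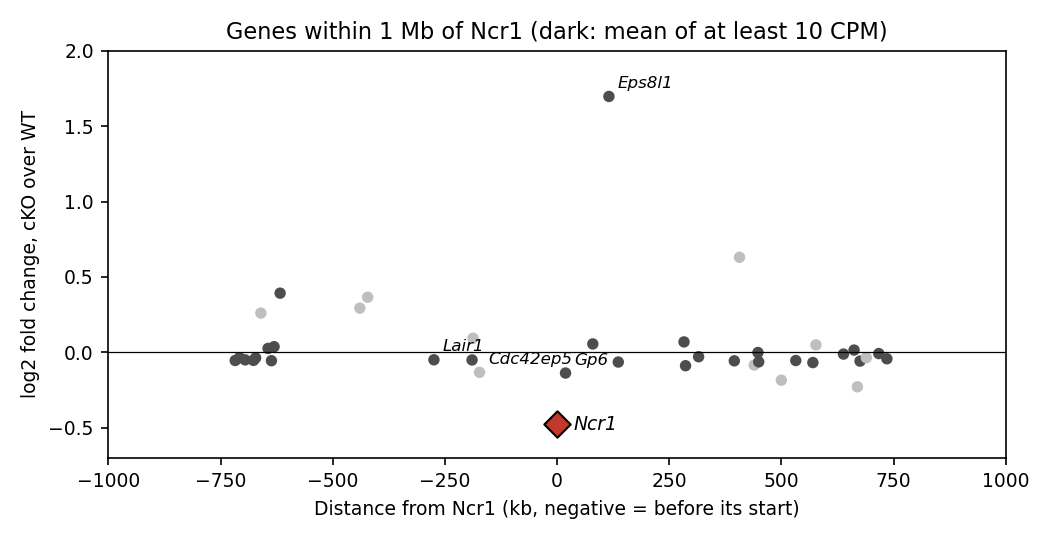
Log2 fold change of cKO over WT for the 39 tested genes within 1 Mb of Ncr1, by their distance in kb (dark points have a mean of at least 10 CPM), with Ncr1 as a red diamond at 0. Ncr1, at -0.47, lies below all of its neighbours, the lowest of which is at -0.23.

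The genes most like Ncr1 were sought among 9102 others with a mean of at least 10 CPM, by Pearson correlation of log2(CPM + 0.5) over the 6 libraries. The 6 points fall into the 2 genotype groups, so a gene that differs between the groups as Ncr1 does gives a high value, and over so many genes high values arise readily. These are descriptions. The highest value, 0.999, was that of Zbtb38, a zinc finger protein that binds methylated DNA, at 140.3, 139.9 and 138 CPM in cKO libraries 1, 2 and 3 and at 147, 149 and 146 CPM in WT libraries 1, 2 and 3. It followed the order of the libraries in Ncr1 over a far smaller range, with a log2 fold change of -0.078. After it came 1700123O20Rik (0.993), the polyubiquitin gene Ubb (0.986), the septin gene Sept7 (0.967) and Gpc1, a heparan sulfate proteoglycan (0.965). Ubb and Gpc1 spanned wider ranges. Ubb was at 335, 328 and 301 CPM in cKO libraries 1, 2 and 3 and at 378.5, 399 and 382 CPM in WT libraries 1, 2 and 3. Gpc1 was at 167, 182 and 159.9 CPM in cKO libraries 1, 2 and 3 and at 204, 242 and 215 CPM in WT libraries 1, 2 and 3. The groups did not overlap in any of these 5 genes, against 4.32% of all genes tested. Their choice by correlation with Ncr1 made this nearly certain, so it adds nothing to the correlation.

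After each group's mean was subtracted, which leaves the variation between libraries of a genotype, other genes led. They were P2ry10b, BC064078, Nfic (a transcription factor), Capzb (an actin capping protein) and Hip1 (a clathrin adaptor), with correlations of 0.996, 0.995, 0.995, 0.994 and 0.994. Their correlations over all 6 libraries were between 0.07 and 0.6. The genotype difference of Ncr1 was thus not shared by them, with log2 fold changes from -0.061 (Hip1) to 0.083 (P2ry10b). The median correlation of the NK core genes with Ncr1 was 0.45 over the 6 libraries and 0.64 after subtracting the group means, against -0.029 and -0.021 over all genes compared. For the NKp46 signalling genes these medians were 0.047 and 0.39. For marker lists of other cells the medians after subtracting the group means ran from -0.75 (ILC1) to 0.77 (neutrophil). Some were as high as that of the NK core genes: 0.77 for neutrophil, 0.70 for T cell and 0.65 for macrophage and monocyte markers, which over the 6 libraries had medians of -0.23, 0.23 and -0.42. Only members with a mean of at least 10 CPM entered: 5 neutrophil, 5 T cell, 5 macrophage and monocyte and 4 ILC1 markers, against 20 NK core genes.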

How the data were processed

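The deposited table was made with HISAT2, HTSeq and DESeq2 on mm10, per the submitters' processing notes, which give no versions. It is named RPKM, but the deposited values are CPM: each column summed to 1000000 and was not divided by length. All values (100%) were whole multiples of 1 read within 0.01 reads, so reads were recovered (26297292 to 29366756 per library over the listed genes). The sources used here give neither strand use nor counting settings nor the choice of listed genes. Whether each library was a separate mouse is not stated, so p-values reflect how much these samples vary, perhaps for technical reasons alone.

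Groups and numbers came from the titles. A gene was tested if 3 or more libraries reached 1 CPM (11343 genes), on log2(CPM + 0.5) computed from the deposited CPM, with limma 3.58.1 in R 4.3.3 (intensity trend, Benjamini-Hochberg adjustment); fold changes on this scale understate those of low genes. The edgeR 4.0.16 and DESeq2 1.42.0 tests on recovered reads were alternatives. Ncr1 and the gene lists were chosen with earlier results of these data known. Named are Ncr1, list members, the 5 genes most correlated by each measure, the 3 on each side in level, and the nearest neighbours; Xbp1 and Rnf213 are named in addition. Identifiers matched GENCODE M21 for 11709 genes, whose symbols replaced 115 of the deposited ones. Every pair of libraries differed beyond sampling noise (lowest chi-square divided by its degrees of freedom 4.74). Promoter letters are from the RefSeq table on GRCm38.p6.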

Additional observations from a re-analysis of the deposited data

How the results depend on the processing

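The log2 fold change of Ncr1 kept its sign under all 18 alternatives. Each moved it from its main value of -0.47 by less than the pooled SD between libraries of a group. It ran from -0.49 to -0.43 under other pseudocounts, filters, scalings and tools and from -0.51 to -0.42 without single libraries. Relative to the NK core genes it ranged from -0.37 to -0.34 and from -0.45 to -0.33 in the same way. Ncr1 was chosen for this difference, so these values describe it and do not test it. Other filters and the replicate block cannot change its log2 fold change. Division by exon length and other pseudocounts hardly can at this level (-0.47 under each). The count of genes called was 0 in limma under every alternative, also without each library, 0 in edgeR, also without WT library 3 (an alternative added after the data were seen), and 6 in DESeq2; the cause was not tested. The median of the genes linked to NKp46 function ranged from -0.0902 to 0.159 without single libraries, highest without WT library 3. The replicate numbers did not pair the libraries (correlations of deviations between equal numbers of -0.169, -0.506 and 0.482). Yet the most alike libraries were of different genotypes, by chi-square divided by its degrees of freedom. This was 4.74 for cKO library 2 with WT library 1 and 7.13 for cKO library 1 with WT library 2. It was 14.5 for cKO library 3 with WT library 3, against 16.8 to 42.2 within a genotype. Whether libraries were paired by design is not stated, and no test used this pairing. If they were, variation shared within a pair could have widened the spread in these tests. In limma 1.17% of the genes had an unadjusted p under 0.05, less than this threshold lets through when no gene differs. Genes that were not called are therefore not shown to be unchanged. With a block of equal replicate numbers 0 genes were called, 118 had an unadjusted p under 0.05, and the log2 fold change of Ncr1 was -0.47. With 3 libraries a group, log2 fold changes had a standard error of 0.0965 in the median gene. Depth did not limit Ncr1, with at least 23698 reads in every library.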
